A study of Mus musculus with 6 samples.

Results

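The genes described here are the 8 that write, copy and remove DNA methylation in mouse cells: the DNA methyltransferases Dnmt1, Dnmt3a and Dnmt3b, the maintenance cofactor Uhrf1, the dioxygenases Tet1, Tet2 and Tet3, and the glycosylase Tdg. They were taken by symbol, as the genes of this pathway, and all 8 were found among the 24054 genes of the deposited expression table. RNA was sequenced from c-Kit+ spleen cells, which are enriched for blood progenitors and were isolated with CD117 beads, with 1 library per mouse. All 6 mice were Flt3ITD/ITD, that is, both copies of the receptor gene Flt3 carried an internal tandem duplication.

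The AML group (acute myeloid leukaemia, 3 mice) was Dnmt3afl/- with MxCre, and its spleens came from moribund animals. The MPN group (myeloproliferative neoplasm, 3 mice) was Dnmt3afl/fl, with no Cre in the sample titles. MxCre is a recombinase under an interferon-inducible promoter that is active in blood cells and in other tissues. The labels give no ages, and they do not say whether the floxed allele was removed in the cells sequenced. Genotype, Cre and disease state change together between the groups, so their shares in any difference below cannot be told apart.

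Methylation of cytosine in CG dinucleotides is set by Dnmt3a and Dnmt3b on unmethylated DNA. It is copied at each cell division by Dnmt1, which Uhrf1 recruits to hemimethylated DNA behind the replication fork. Tet enzymes oxidise 5-methylcytosine, Tdg cuts out the most oxidised forms, and base excision repair then restores an unmodified cytosine. In human blood, mutations of DNMT3A and TET2 are frequent in clonal haematopoiesis and in acute myeloid leukaemia.

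The start sites of the genes lie in DNA that can itself be methylated. In the RefSeq promoter table (build GRCm38.p6), 13 start sites matched the 8 genes, and the 250 bases before each were read. These windows held from 2 to 51 CG dinucleotides with a median of 19, against a median of 6 over all 32851 promoters in the table. At least 10 CG were present in 84.6% of the 13 windows and in 37.8% of all promoters. The window of Tet2 held the most, 51 (chr3:133544391-133544640, minus strand), and that of the first Dnmt1 start site the fewest, 2. The following 3 windows are printed because Dnmt3a and Dnmt3b changed most and in opposite directions; capitals mark each CG. They are Dnmt3a start site 1 (chr12:3806730-3806979, plus strand, 38 CG), the downstream Dnmt3a start site 3 (chr12:3891494-3891743, plus strand, 15 CG) and Dnmt3b (chr2:153649199-153649448, plus strand, 21 CG).
Dnmt3a start site 1: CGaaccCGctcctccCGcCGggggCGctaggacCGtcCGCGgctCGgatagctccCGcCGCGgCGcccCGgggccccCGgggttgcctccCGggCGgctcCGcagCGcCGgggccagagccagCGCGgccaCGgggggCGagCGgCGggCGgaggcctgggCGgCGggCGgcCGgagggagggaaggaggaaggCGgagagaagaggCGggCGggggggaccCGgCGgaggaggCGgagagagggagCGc
Dnmt3a start site 3: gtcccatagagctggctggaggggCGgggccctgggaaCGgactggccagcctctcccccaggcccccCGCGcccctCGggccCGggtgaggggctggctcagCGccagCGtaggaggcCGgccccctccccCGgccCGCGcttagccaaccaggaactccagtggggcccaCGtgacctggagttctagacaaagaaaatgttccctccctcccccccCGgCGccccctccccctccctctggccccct
Dnmt3b: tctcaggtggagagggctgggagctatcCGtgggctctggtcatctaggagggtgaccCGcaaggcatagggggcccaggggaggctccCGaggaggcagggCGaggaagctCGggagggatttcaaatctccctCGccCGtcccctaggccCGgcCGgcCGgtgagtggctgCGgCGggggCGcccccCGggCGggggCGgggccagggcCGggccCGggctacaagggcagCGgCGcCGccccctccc
No methylation was measured in these libraries, so the CG content of the windows is a description of the sequence only. The letters TTTCCCGC and TTTGGCGC, which E2F factors of the cell cycle bind, were searched on both strands. They occurred in 0 of the 13 windows, in 1.3% of all promoters and in 21.7% of 23 promoters of S phase genes. With the 50 bases after the start included, they occurred in 1 of the 13 windows, that of Dnmt1 start site 3 (7.69%), in 1.56% of all promoters and in 34.8% of those of S phase genes.

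Levels are given as TPM, a transcript share scaled to the same total in each library, as deposited by the authors. Genes with 1 TPM or more in 3 or more libraries were tested, which left 12223. Differences were taken on the log2(TPM + 1) scale as AML minus MPN and tested with limma, and a gene was called when its Benjamini-Hochberg p, adjusted over the whole table of tested genes, was under 0.05. The limma p-values set the difference against the spread between 3 mice per group, moderated across all tested genes. Where a mouse was left out, its group was smaller. With 3 against 3, the smallest p of an exact two-sided permutation test is 0.1.

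The 2 groups differed widely. Of the tested genes 30.1% were called, 20.1% higher and 10% lower in AML, and the median log2 difference over all tested genes was 0.13. Kit, the selected receptor, was at 99.2 to 130 TPM in AML and 145 to 152 TPM in MPN. Of 8 stem and progenitor markers 7 were higher in AML, with Cd34 at 257 to 386 TPM against 42.6 to 59.1 TPM. Markers of mature cells were lower: 6 of 6 tested macrophage markers, 6 of 6 neutrophil markers, 6 of 7 T and NK cell markers and 3 of 4 B cell markers. Their summed levels were 64.4 to 137 TPM against 304 to 385 TPM for macrophage markers, and 4470 to 13080 TPM against 19212 to 30083 TPM for neutrophil markers. The same sums were 3.52 to 5.07 TPM against 71.4 to 96.7 TPM for T and NK cells, and 26.9 to 36.3 TPM against 60.5 to 75.8 TPM for B cells. In MPN most of the T and NK cell sum came from Cd8a (40.8 to 58.25 TPM) and Cd4 (15.6 to 42.3 TPM). Cd3d, Cd3e and Cd3g lay between 1.27 and 5.23 TPM there. Sums for erythroid markers were 47.6 to 221 TPM against 172 to 350 TPM (1 of 6 lower), and those for dendritic cell markers 267 to 1573 TPM against 1323 to 1941 TPM (2 of 6 lower). Platelet and megakaryocyte markers summed to 59 to 115 TPM against 29.2 to 54.9 TPM, with 2 of 4 higher. AML replicates 1 and 2 were female by Xist (186 and 194 TPM) and the other 4 mice were male, so females occurred in AML only. A term for sex, used below, therefore leaves AML replicate 3 as the only AML mouse to set against the MPN mice. The file headers place MPN replicate 1 in a sequencing run of its own.

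Dnmt3a, Dnmt3b, Dnmt1 and Tdg were called, which is 4 of 8 against 30.1% of all tested genes. Dnmt3b, Dnmt1 and Tdg were higher in AML (3 of 8, against 20.1%) and Dnmt3a was lower (1 of 8, against 10%). Uhrf1, Tet1, Tet2 and Tet3 did not pass. The groups did not overlap for 5 of the 8 genes, Tet3 being the fifth, against 50.9% of all tested genes. At an unadjusted p under 0.05 the count was 6 of 8, against 43.6%. The sample titles give Dnmt3afl/- in AML and Dnmt3afl/fl in MPN, so the groups differ by design at Dnmt3a itself. Dnmt3a is included in each of these counts except that of genes higher in AML. The 8 genes, and the lists read below, were chosen with earlier results of these data known. Their shares called are therefore descriptions only.

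**Figure D1:**
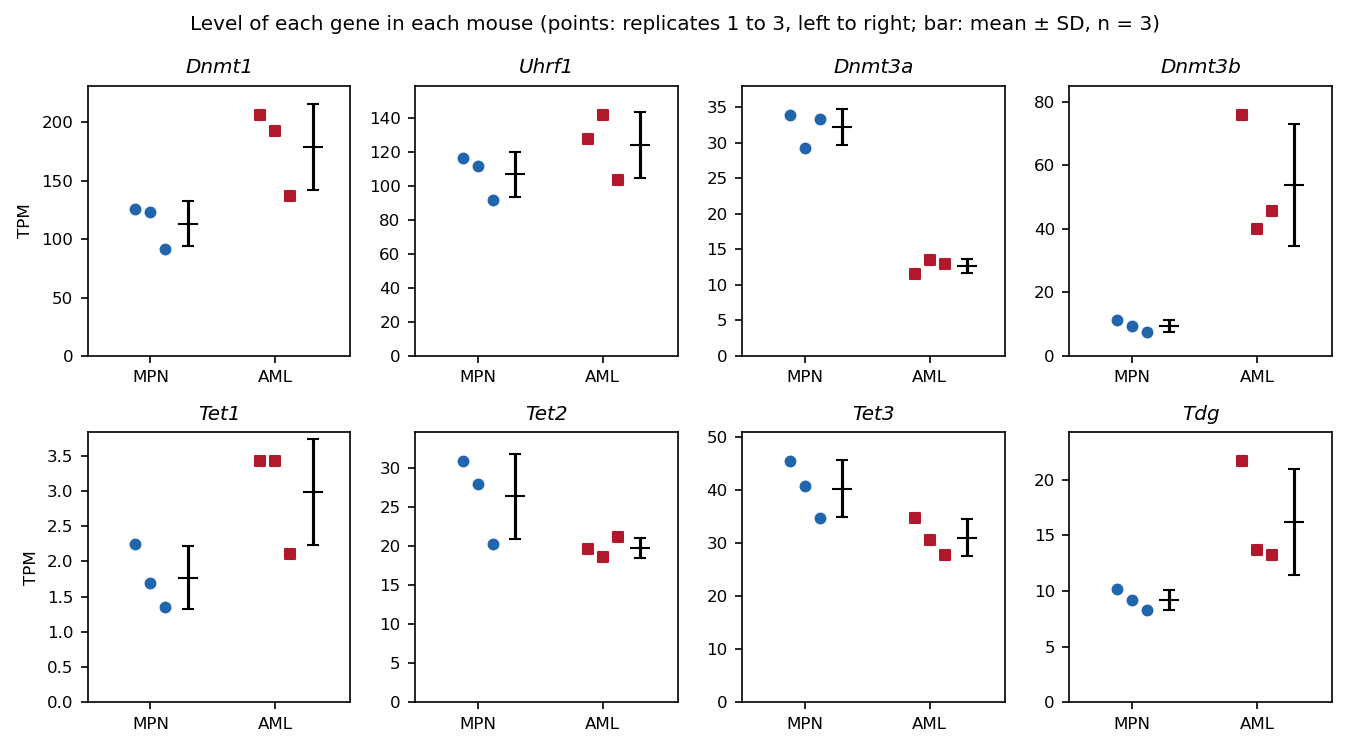
Level in TPM (vertical axes, each from 0) of the 8 genes in each MPN mouse (circles) and AML mouse (squares), with bars at the mean ± SD of 3 mice per group. Dnmt3a lies at 11.5 to 13.5 TPM in AML below 29.3 to 33.9 TPM in MPN, Dnmt3b lies at 40.0 to 75.8 TPM in AML above 7.66 to 11.3 TPM in MPN, and the groups of Uhrf1, Tet1 and Tet2 overlap.

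Dnmt3a, the de novo methyltransferase that is floxed in every mouse, was read first because the alleles target it. The gene (ENSMUSG00000020661) spans chr12:3806007-3914443 on the plus strand of GRCm38. Its level was 11.5, 13.5 and 12.9 TPM in AML replicates 1 to 3, and 33.9, 29.3 and 33.4 TPM in MPN replicates 1 to 3. Every AML library lay below every MPN library. The means were 12.6 ± 1.02 and 32.2 ± 2.53 TPM (SD, n = 3 each), so AML held 39.3% of the MPN level. The log2 difference was -1.28 (SE 0.13, 95% interval -1.60 to -0.97), with a limma adjusted p of 0.000879. A value for the whole gene does not show whether the floxed exons were present in these transcripts, and Dnmt3a RNA was still measured in all 3 AML libraries. In bulk RNA, fewer cells of a type that expresses a gene and less RNA per cell cannot be told apart, and the marker sums above moved in the same libraries; their part in these results was not tested.

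Dnmt3b, the other de novo methyltransferase, is typically high in early embryonic cells and lower in most adult tissues. It lies at chr2:153649450-153687730 on the plus strand (ENSMUSG00000027478). It reached 75.8, 40.0 and 45.6 TPM in the AML libraries and 11.3, 9.41 and 7.66 TPM in the MPN libraries. The lowest AML library lay far above the highest MPN library, and AML replicate 1 stood above the other AML mice. Mean levels were 53.8 ± 19.3 and 9.45 ± 1.81 TPM (SD, n = 3 each), 5.69-fold higher in AML. This gave a log2 difference of 2.35 (SE 0.26, 95% interval 1.75 to 2.95) and a limma adjusted p of 0.00101. By size of difference Dnmt3b stood at percentile 97.4 of all tested genes and Dnmt3a at percentile 90.

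The balance of the de novo enzymes was therefore inverted between the groups. Dnmt3a made up 75, 75.7 and 81.3% of the summed Dnmt3a and Dnmt3b TPM in the MPN mice. In the AML mice its share was 13.2, 25.2 and 22.1%. Within a library, the log2 level of Dnmt3a minus that of Dnmt3b was 1.68 ± 0.27 in MPN and -1.95 ± 0.59 in AML (SD, n = 3 each; exact two-sided permutation p = 0.1, 0.175 after adjustment over 7 such ratios). The sum itself, which was formed after the values were seen, was 87.3, 53.5 and 58.5 TPM in AML and 45.2, 38.7 and 41 TPM in MPN. So the summed level of the pair was 1.6-fold higher in AML (exact permutation p = 0.1), with no overlap, although Dnmt3a itself was lower. Dnmt3l, a partner of both enzymes that has no catalytic activity, was too low to be tested, at 0.52 to 1.5 TPM in AML and 0.27 to 0.34 TPM in MPN.

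**Figure D2:**
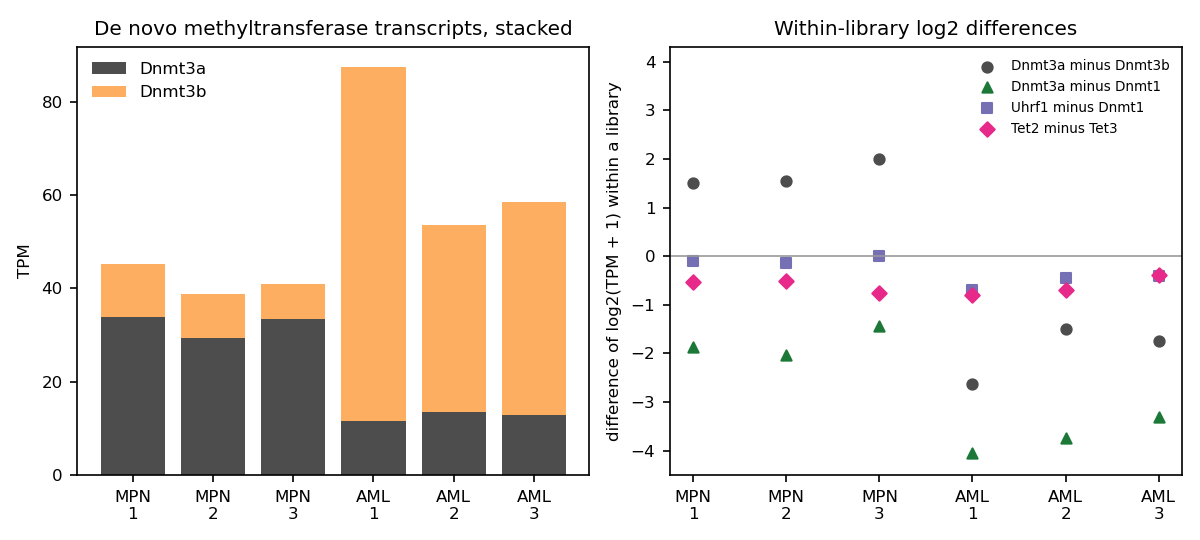
Left, TPM of Dnmt3a and Dnmt3b stacked for each mouse, where Dnmt3a is 75 to 81.3% of the bar in MPN and 13.2 to 25.2% in AML. Right, differences of log2(TPM + 1) between pairs of genes within each library (points), where Dnmt3a minus Dnmt3b is above 0 in the 3 MPN mice and below 0 in the 3 AML mice.

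Dnmt1, the maintenance methyltransferase (ENSMUSG00000004099, chr9:20907209-20959888, minus strand), was the most abundant of the 8 by mean in both groups. Its level was 206, 193 and 137 TPM in AML replicates 1 to 3 and 126, 123 and 91.3 TPM in MPN replicates 1 to 3. The lowest AML library stood just above the highest MPN library. Means were 179 ± 36.7 and 113 ± 19.3 TPM (SD, n = 3 each), a 1.58-fold higher level in AML, with a log2 difference of 0.65 (SE 0.19, 95% interval 0.19 to 1.10) and a limma adjusted p of 0.0413. The call was narrow and ended without AML replicate 1 (adjusted p = 0.0946) or 2 (0.108), and without MPN replicate 1 (0.0661), 2 (0.077) or 3 (0.121). It also ended with a term for sex, where AML replicate 3 alone stood against the MPN mice (log2 difference 0.29).

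Uhrf1, which binds hemimethylated CG and brings Dnmt1 to it, lies at chr17:56303321-56323486 on the plus strand (ENSMUSG00000001228). Its level was 128, 142 and 103 TPM in AML and 117, 112 and 91.5 TPM in MPN, so the groups overlapped. The log2 difference was 0.21 (SE 0.15, 95% interval -0.15 to 0.57; limma adjusted p = 0.322), and with a term for sex it was -0.04. Relative to Dnmt1 in the same library, the log2 level of Uhrf1 was -0.69, -0.44 and -0.41 in AML and -0.11, -0.14 and 0.00 in MPN. The pair was thus nearly level in MPN, while Dnmt1 exceeded Uhrf1 in each AML mouse, with no overlap between the groups (exact permutation p = 0.1, adjusted 0.175). This difference in ratio is not a change of Uhrf1 itself.

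Dnmt1 and Uhrf1 are transcribed most in S phase, so their levels were set beside 25 genes of S phase and replication, all tested. Of these 6 were higher in AML, 1 was lower and 18 did not pass. The 7 calls of 25 are close to the share of 30.1% over all tested genes, and the median log2 difference was 0.32 against 0.13. The list's median log2 level was 6.27, 6.06 and 5.94 in AML and 5.76, 5.70 and 5.46 in MPN, without overlap. Mcm6, a subunit of the replicative helicase, was at 334 ± 45.4 against 202 ± 28.8 TPM (limma adjusted p = 0.0123), and Mcm3 of the same complex at 226 ± 37.2 against 146 ± 18 TPM (0.0228). Gins2, part of the helicase complex at the fork, rose by 0.49 on the log2 scale (0.032). Cyclin E1 (Ccne1), which drives entry into S phase, was lower at 22.6 ± 4.26 against 43.7 ± 11.9 TPM (0.0267). Mki67 and Top2a, which mark dividing cells, had log2 differences of -0.05 (adjusted p = 0.907) and 0.13 (0.555), and neither kept its sign when each mouse was left out in turn. Relative to the list's median, Dnmt1 was at 1.38 ± 0.19 in AML and 1.18 ± 0.10 in MPN, and these groups overlapped (exact permutation p = 0.3, adjusted 0.35). Uhrf1 was at 0.87 ± 0.20 and 1.10 ± 0.03, again with overlap (exact permutation p = 0.2, adjusted 0.28). The call of Mcm6 ended only with a term for sex (adjusted p = 0.168). For Mcm3 it ended without AML replicate 2, MPN replicate 1 or MPN replicate 3 (adjusted p 0.0544 to 0.0744), and that of Gins2 without any 1 mouse but AML replicate 3 (0.0556 to 0.0974). The call of Ccne1 ended without AML replicate 2 or 3, or MPN replicate 1 or 2 (0.0569 to 0.0956). The calls of Mcm3, Gins2 and Ccne1 also ended with a term for sex (log2 differences 0.36, 0.30 and -1.09). That of Gins2 ended after quantile normalization too (0.0502). The list's 7 calls fell to 1 without AML replicate 2 or MPN replicate 1, to 2 without MPN replicate 2 or 3, to 3 without AML replicate 1, and to 0 with a term for sex.

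Tet1 (ENSMUSG00000047146, chr10:62804570-62908996, minus strand), which is typically high in embryonic stem cells, had the lowest level of the 8. It was at 3.42, 3.42 and 2.11 TPM in AML and 2.25, 1.7 and 1.36 TPM in MPN. AML replicate 3 fell below MPN replicate 1, so the groups overlapped. The log2 difference was 0.52 (SE 0.22, 95% interval 0.01 to 1.03; limma adjusted p = 0.11).

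Tet2 (ENSMUSG00000040943, chr3:133463679-133545139, minus strand), the Tet gene most often mutated in blood disease, was at 19.7, 18.6 and 21.2 TPM in AML. In MPN it was at 30.9, 28 and 20.3 TPM. The first and second MPN mice were above all AML mice, and MPN replicate 3 lay among them. The log2 difference was -0.38 (SE 0.18, 95% interval -0.79 to 0.04; limma adjusted p = 0.142), and without MPN replicate 3 it was -0.55 (adjusted p = 0.0403). It also passed after median scaling (-0.46, adjusted p = 0.0394).

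Tet3 (ENSMUSG00000034832, chr6:83362373-83459084, minus strand) was the most abundant Tet gene in every library. Its level was 34.7, 30.7 and 27.9 TPM in AML and 45.5, 40.8 and 34.8 TPM in MPN. The groups touched without overlapping, at 34.70 TPM in AML replicate 1 and 34.77 TPM in MPN replicate 3. The log2 difference was -0.36 (SE 0.15, 95% interval -0.71 to -0.02; limma adjusted p = 0.0994), and after median scaling it was -0.45 (adjusted p = 0.0227).

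The summed level of the 3 Tet genes was 57.8, 52.7 and 51.1 TPM in AML and 78.6, 70.5 and 56.4 TPM in MPN, with overlap (exact permutation p = 0.2). This sum was also formed after the values were seen. The proportion of Tet3 in it was 54.5 to 60% in AML and 57.8 to 61.6% in MPN. Tet2 minus Tet3 within a library was -0.62 ± 0.21 in AML and -0.61 ± 0.12 in MPN on the log2 scale (SD, n = 3 each; exact permutation p = 0.9, adjusted 0.9). Tet1, in contrast, made up 4.13 to 6.49% of the sum in AML and 2.41 to 2.86% in MPN. On the log2 scale Tet1 minus Tet2 was -2.40 ± 0.37 in AML and -3.30 ± 0.13 in MPN, without overlap (exact permutation p = 0.1, adjusted 0.175).

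Tdg (ENSMUSG00000034674, chr10:82629828-82650799, plus strand), the glycosylase that removes oxidised methylcytosine, was at 21.6, 13.7 and 13.2 TPM in AML. In MPN it was at 10.2, 9.18 and 8.33 TPM. All AML libraries were above all MPN libraries, and AML replicate 1 stood apart from its group. Means were 16.2 ± 4.73 and 9.22 ± 0.911 TPM (SD, n = 3 each), 1.75-fold higher in AML, with a log2 difference of 0.72 (SE 0.21, 95% interval 0.22 to 1.22) and a limma adjusted p of 0.0398. The call ended without AML replicate 1 (adjusted p = 0.0549) or 2 (0.0546), and without MPN replicate 1 (0.0762), 2 (0.115) or 3 (0.112). With a term for sex the log2 difference was 0.48 (adjusted p = 0.38).

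The level of Tdg is uncertain, since a near-identical processed copy has a row of its own and reads from the pair may not be separable. How reads were divided between them was not tested. Gm9855, a transcribed pseudogene (RefSeq Tdg-ps2) at chr10:42054113-42055306 on the minus strand, was 99.2% identical to a Tdg transcript over all its 1194 bases. In the TPM table this copy had the higher values, 67.3, 48 and 42.4 TPM in AML and 37.9, 34.5 and 29 TPM in MPN (log2 difference 0.60, SE 0.19, limma adjusted p = 0.0509). It held 75.7 to 77.8% of the sum of both rows in AML and 77.7 to 79% in MPN. In the authors' second table, in RPKM (reads relative to gene length and depth), the copy held 0.176 to 0.621% of the sum and Tdg the rest. The tables thus placed the higher values in opposite rows of the pair, while each showed a higher value in AML for Tdg itself. TPM is relative to transcript length, which was 1194 bases for the copy and 3502 for the longest Tdg transcript. Shares of TPM are therefore not shares of reads. The summed TPM was 89, 61.6 and 55.6 in AML and 48, 43.7 and 37.3 in MPN, 1.6-fold higher in AML. Replacing the Tdg row by this sum, a setting chosen after seeing the data, gave a log2 difference of 0.64 (SE 0.19; limma adjusted p = 0.0419).

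**Figure D3:**
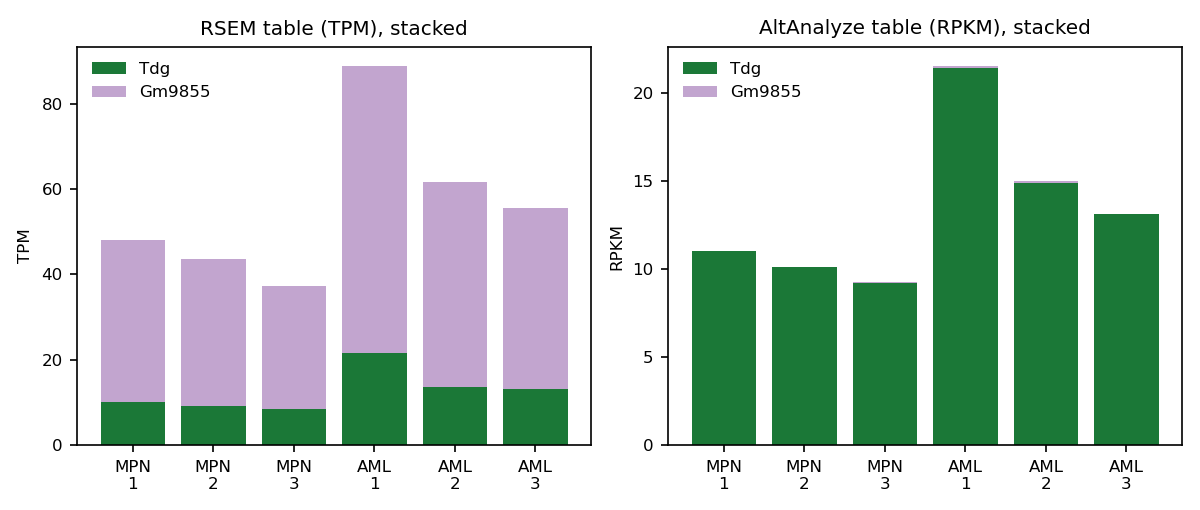
Tdg and its processed copy Gm9855 stacked for each mouse, in TPM from the RSEM table (left) and in RPKM from the AltAnalyze table (right). Gm9855 makes up 75.7 to 79% of the bars on the left and under 1% of those on the right, and the tallest bar of both panels is AML replicate 1.

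The order of the 8 genes by mean level differed between the groups mainly in the de novo enzymes. In MPN the order was Dnmt1, Uhrf1, Tet3, Dnmt3a, Tet2, Dnmt3b, Tdg and Tet1. In AML it was Dnmt1, Uhrf1, Dnmt3b, Tet3, Tet2, Tdg, Dnmt3a and Tet1. Neighbours whose libraries overlapped were Dnmt1 and Uhrf1 in both groups, Dnmt3a and Tet2 as well as Dnmt3b and Tdg in MPN, and Tet2 and Tdg as well as Tdg and Dnmt3a in AML. Among all tested genes, Dnmt3b stood at percentiles 26.9 to 30.3 of level in the MPN libraries and 66.6 to 81.9 in the AML libraries. Dnmt3a stood at percentiles 57.8 to 64.9 in MPN and 30.6 to 34.8 in AML.

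The RPKM table, made with another pipeline from the same libraries, gave differences of the same sign for all 8 genes. Of the 7 genes that could be tested there, the same 4 were called, against 31.3% of all 12811 tested genes. Dnmt3a was at 39.8% of the MPN level (limma adjusted p = 0.000964) and Dnmt3b was 5.54-fold higher (0.00107). Dnmt1 was at 160% of the MPN level (0.0353) and Tdg at 163% (0.0386). Tet1 was too low for a test there, and its groups did not overlap, at 0.627 to 1.03 RPKM in AML and 0.436 to 0.619 RPKM in MPN.

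**Figure D4:**
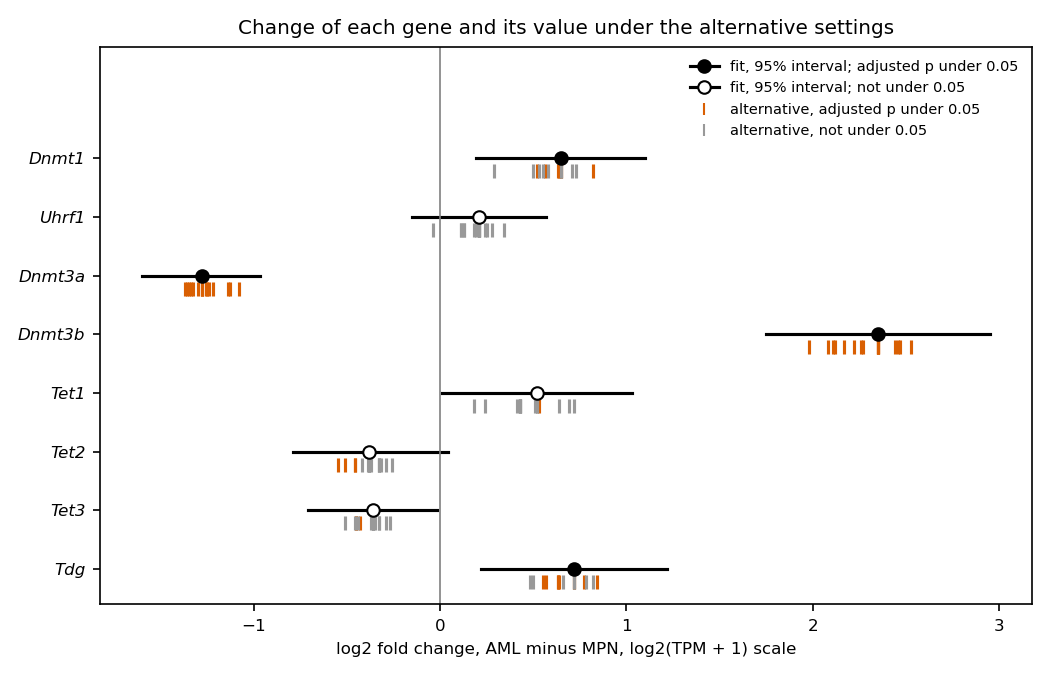
Log2 difference, AML minus MPN, of each gene with its 95% interval (filled circles, adjusted p under 0.05; open circles, not) and its value under each alternative setting (short vertical marks, orange where adjusted p was under 0.05). All marks of Dnmt3a (-1.37 to -1.08) and Dnmt3b (1.98 to 2.53) are orange, while those of Dnmt1 and Tdg are mixed.

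The number of the 8 genes called moved with the setting, and so did the share of all tested genes called. Median scaling gave 6 of 8 (against 30.2% of all genes), quantile normalization 5 (31.0%) and array weights 7 (44.5%). The estimation of array weights ended with a warning that its convergence tolerance had not been reached. With no filter 2 were called (20.6%), and with a term for sex 2 (9.88%). Leaving out AML replicate 1, 2 or 3 gave 2, 2 and 4 (26.3, 24.2 and 30.3%). Leaving out MPN replicate 1, 2 or 3 gave 2, 2 and 3 (18.6, 16.4 and 18.7%). Dnmt3a and Dnmt3b were among the genes called in each of these settings.

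Genes that work with the methyltransferases were read next, from a list of 11 of which 9 were tested. Of these 4 were higher in AML (4 of 9, against 20.1% of all tested genes), none was lower and 5 did not pass, with a median log2 difference of 0.33 against 0.13 for all tested genes. Cdca7, which activates the remodeller Hells during maintenance methylation, was at 162 ± 24.6 against 75 ± 9.24 TPM (log2 difference 1.10, SE 0.15, limma adjusted p = 0.00252). Hells itself was at 57.9 to 61.6 TPM in AML and 29.1 to 50.9 TPM in MPN and did not pass (log2 difference 0.52, adjusted p = 0.102). Trim28, a corepressor that brings methylation to imprinted regions and repeats, was at 283 ± 26.7 against 180 ± 12.5 TPM (adjusted p = 0.00581). Zfp57, a zinc finger protein that recruits Trim28 to imprinted regions, was at 3.76 ± 0.536 against 1.66 ± 0.497 TPM (0.02). Ehmt2, a histone H3 lysine methyltransferase, was at 107 ± 7.69 against 84.4 ± 0.955 TPM (0.0422). Only the call of Cdca7 held under all 16 alternative settings. The call of Ehmt2 ended without any 1 mouse (adjusted p 0.0506 to 0.138), and that of Zfp57 without MPN replicate 2 (0.053) or 3 (0.0507). With a term for sex the calls of Ehmt2, Zfp57 and Trim28 ended (log2 differences 0.34, 0.93 and 0.57). That of Ehmt2 also ended after median scaling (0.0991) or quantile normalization (0.0615), and without the trend (0.0745). The 4 calls became 2 without MPN replicate 2 or 3, and 1 with a term for sex.

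Of 7 partners and regulators of Tet enzymes, 4 were tested and 1 was called (against 30.1% of all tested genes). Cxxc5, a CXXC zinc finger protein that binds unmethylated CG, was at 51.1, 35.4 and 30.3 TPM in AML and 10, 7.93 and 9.74 TPM in MPN. The AML libraries were all above the MPN libraries, and the log2 difference was 1.94 (SE 0.21, limma adjusted p = 0.00101). Ogt, the glycosyltransferase that binds Tet2 and Tet3, had a log2 difference of -0.26 (adjusted p = 0.432).

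Base excision repair completes demethylation after Tdg, and 15 of its 16 listed genes were tested. Among them 5 were higher in AML, 2 were lower and 8 did not pass (7 of 15 called, against 30.1% of all tested genes), with a median log2 difference of 0.22. Apex1, the endonuclease that cuts the site left by a glycosylase, was at 137 ± 7.52 against 65.2 ± 4.56 TPM (log2 difference 1.06, SE 0.10, limma adjusted p = 0.000675). Nthl1, a glycosylase for oxidised pyrimidines, was at 8.8 ± 0.536 against 3.78 ± 0.155 TPM (0.00288). Ogg1, which removes oxidised guanine, was at 18.3 ± 1.08 against 9.53 ± 0.738 TPM (0.00438), and Ung, which removes uracil, at 35.4 ± 5.59 against 18 ± 2.3 TPM (0.00681). These 3 glycosylases act mainly on damaged bases other than the products of Tet enzymes. Polb, the polymerase that fills the gap, was lower at 29.5 ± 5.25 against 48.4 ± 4.44 TPM (0.0163), and so was Gadd45b, a protein linked to repair and demethylation, at 19.5 ± 9.95 against 42.6 ± 3.77 TPM (0.0258). The calls of Apex1 and Nthl1 held under all 16 alternatives, and those of Ogg1 and Ung ended only with a term for sex (adjusted p = 0.0695 and 0.106). For Polb it ended without MPN replicate 2 (0.0589) or 3 (0.0601), and that of Gadd45b without AML replicate 3 (0.052) or any 1 MPN mouse (0.0566 to 0.088). The calls of Polb and Gadd45b also ended with a term for sex (log2 differences -0.58 and -1.36). The list's 7 calls fell to 4 without MPN replicate 2 or 3, and to 2 with a term for sex.

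Methyl groups reach the methyltransferases through S-adenosylmethionine, and all 12 listed genes of its supply, linked folate steps and the Ahcy family were tested. Of these 3 were higher, 2 were lower and 7 did not pass (5 of 12 called, against 30.1%), with a median log2 difference of 0.20. Shmt1, which moves a carbon from serine onto folate, was at 62.8 ± 12.2 against 13.4 ± 0.817 TPM (log2 difference 2.13, SE 0.16, limma adjusted p = 0.000267). Ahcy, which clears the inhibitory product S-adenosylhomocysteine, was at 175 ± 42 against 92.8 ± 9.29 TPM (0.01). Ahcyl2, a relative of Ahcy, was lower at 21.5 ± 8.27 against 40.9 ± 4.22 TPM (0.0294). The call of Shmt1 held under all 16 alternatives and that of Ahcy ended only with a term for sex (adjusted p = 0.139). For Ahcyl2 it ended without AML replicate 2 (0.0721) or any 1 MPN mouse (0.0672 to 0.0901). The call of Ahcyl2 also ended with no filter (0.0526) and with a term for sex (log2 difference -0.41). The 5 calls fell to 2 without AML replicate 2, MPN replicate 1 or MPN replicate 2, to 3 without MPN replicate 3, and to 1 with a term for sex. Of 9 readers of methylated CG all were tested and 1 passed (against 30.1%), Mbd3, a subunit of the NuRD complex (125 ± 11.7 against 92.3 ± 3.42 TPM, adjusted p = 0.0231). That call ended without any 1 of the MPN mice (adjusted p 0.0634 to 0.0845) and with a term for sex (0.237).

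**Figure D5:**
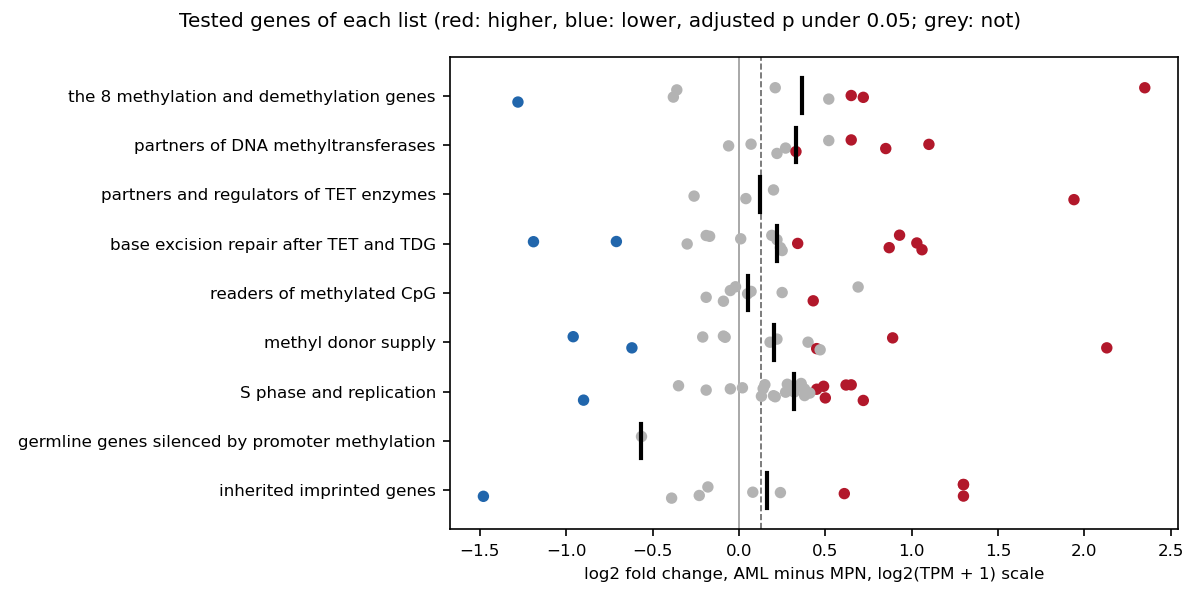
Log2 difference, AML minus MPN, of the tested genes (points) in the 8 genes and in each list of related genes, with the median of each list (thick bars) and of all tested genes (dashed line, 0.13). Red and blue points passed an adjusted p under 0.05; Dnmt3b is the highest point of its row at 2.35 and Dnmt3a the lowest at -1.28.

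For each of the 8 genes, the tested genes whose log2 levels followed it most closely over the 6 libraries were listed, among 11247 genes with a mean of at least 1 TPM. For Dnmt3a these were Zfp217 (Pearson r = 0.9990), Sema6d (0.9977) and Ms4a1 (0.9975), and Ms4a1 encodes the B cell antigen CD20. For Dnmt3b they were Maea, Flywch2 (0.9998) and Rcor2 (0.9996). For Tdg they were Slc28a2 (0.9991), Mat2b (0.9985) and Dyrk3 (0.9984), and for Dnmt1 they were Nif3l1 (0.9979), Trmt61a (0.9956) and Dffa (0.9954). The closest genes were Kansl1l for Uhrf1 (0.9977), Fam221a for Tet1 (0.9946), Senp7 for Tet2 (0.9951) and Optn for Tet3 (0.9934). These values rest on 6 points that share a split into 2 groups, so they describe these libraries and carry no test. After the mean of each group was subtracted, r between the 28 pairs of the 8 genes ranged from -0.60 for Dnmt3a and Tdg to 0.96 for Dnmt3b and Tdg. In the last pair AML replicate 1 was the highest library for both genes.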

How the data were processed

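RNA was sequenced from 6 c-Kit+ spleen samples (poly-A, stranded, paired 75-base reads, per the labels' protocols). Replicate numbers follow accession order and only name the mice. The deposited RSEM table holds TPM per gene symbol, per the file headers, and was used as deposited. The deposited AltAnalyze table holds RPKM per Ensembl gene, per the file headers, and served as a check. TopHat2, RSEM and Bowtie2 and the builds mm9 and mm10 are named in the submitters' processing notes. Which build belongs to which table, and whether counting used strand, are not given in the sources used here. Read depth cannot be recovered from TPM. From the steps of low RPKM values, relative depth was 1.31, 1.01 and 0.749 in AML and 1.06, 0.999 and 0.949 in MPN.

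Gene positions are from GENCODE M21 (GRCm38). Genes at 1 TPM or more in 3 or more of the 6 libraries were tested on log2(TPM + 1) with limma 3.58.1 in R 4.3.3. This was a moderated test with a mean-variance trend and Benjamini-Hochberg adjustment. The fit was first run on simulated normal values, drawn independently for each gene, with no structure of sex or sequencing run. That simulation therefore does not cover these features of the data. Ratios and sums used exact two-sided permutation tests. Named were the 8 genes, the called genes of each list with the 4 smallest p, and genes most alike to each of the 8. Of the most alike, 3 are given for each of Dnmt3a, Dnmt3b, Dnmt1 and Tdg, and 1 for each of Uhrf1, Tet1, Tet2 and Tet3. Kit, Cd34, Cd8a, Cd4, Cd3d, Cd3e, Cd3g, Xist, Hells, Ogt, Dnmt3l, Polb, Gadd45b, Mki67, Top2a, Sycp1 and Gm9855 were added after their values were seen. The 8 genes and the lists were chosen with earlier results of these data known. A further gene that the rule names is not reported here. Alternatives were the pseudocount, the filter, scaling, the RPKM table, the trend, array weights, a term for sex and leaving out each mouse. Deposited symbols that a spreadsheet had turned into dates (27) match none of the genes named. Protein sequences were not used here.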

Additional observations from a re-analysis of the deposited data

How the results depend on the processing

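Dnmt3a and Dnmt3b kept their direction and stayed called under all 16 alternatives, with log2 differences of -1.37 to -1.08 and 1.98 to 2.53. Dnmt1 kept its direction, and its call ended in 9 of 16, among them no trend (adjusted p = 0.0564), quantile normalization (0.0548) and no filter (0.0667). Tdg likewise kept its direction and its call ended in 7. Tet2 and Tet3 also passed with array weights and with quantile normalization, and Tet1 with array weights (0.0393). Uhrf1 passed under none, and its log2 difference was -0.04 with a term for sex. When a mouse was left out, Mki67 ranged from -0.32 to 0.12 and Top2a from -0.01 to 0.23, and Top2a was -0.09 with a term for sex.

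The 4 members called became 7 with array weights, 6 after median scaling, 2 with no filter, 2 with a term for sex and 2 to 4 when a mouse was left out. The 3678 tested genes called became 1208 with a term for sex and 2009 to 3705 when a mouse was left out. Over the lists, 30 called genes became 19 with a filter at 5 TPM, 8 with a term for sex and 15 to 27 when a mouse was left out. Tet2 minus Tet3 moved from -0.01 to 0.00 with a pseudocount of 5, to 0.01 in RPKM and to between -0.13 and 0.07 when a mouse was left out. Median scaling moved the median of all tested genes from 0.13 to 0.05.

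The term for sex leaves AML replicate 3 as the only male AML mouse to set against the MPN mice. The cause of the other changes was not tested. No paired analysis was possible because replicate numbers only name the mice. Depth in reads is unknown for TPM, and Tet1 and Dnmt3l lie near the filter.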

Other observations

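Of 17 germline genes that promoter methylation typically silences, 16 stayed under 1 TPM in all 6 libraries, and 6 of them were listed at 0 in all (Tex19.1, Mael, Asz1, Stk31, Mov10l1 and Rpl10l). Low values were common: of all 24054 genes, 17949 were above 0 in a library and 12223 passed the filter for testing. Whether the germline genes were silenced by methylation was not tested. The 1 tested gene, Sycp1, had a log2 difference of -0.57 (limma adjusted p = 0.276). Of 18 imprinted genes 10 were tested, 4 were higher in AML and 1 was lower (5 of 10 called, against 30.1% of all tested genes), with a median log2 difference of 0.16. Dlk1, a paternally expressed Notch ligand homologue, was at 1.56 ± 0.34 against 0.0333 ± 0.0153 TPM (limma adjusted p = 0.00217), and Cdkn1c, a maternally expressed inhibitor of the cell cycle, at 3.22 ± 0.982 against 0.677 ± 0.0569 TPM (0.0046). Sgce was at 2.81 ± 1.06 against 0.517 ± 0.215 TPM (0.00773), and Grb10, an adaptor of growth factor receptors, was lower at 0.707 ± 0.4 against 3.78 ± 1.24 TPM (0.00797). These levels are low. Dlk1, Cdkn1c and Sgce reached 1 TPM only in AML libraries, and Grb10 passed the filter through its MPN libraries. Their testing thus depended on the group where each was high, so the share called here is not comparable with 30.1%. The call of Sgce ended with a term for sex (log2 difference 0.95), and the 5 calls became 1 in the RPKM table and 0 with a filter at 5 TPM.

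Transcripts beside the de novo genes, chosen after their values were seen, were low and not tested. Dnmt3aos, antisense within Dnmt3a, was at 0.06, 0.11 and 0.05 TPM in AML and 0.45, 0.74 and 0.57 TPM in MPN, so all AML libraries were below all MPN libraries. Without a stated use of strand, reads of such a transcript and of the gene on the other strand cannot be told apart. Dnmt3c, a duplicate neighbour of Dnmt3b (93.7% of its transcript aligned to Dnmt3b, at 89.2% identity), was at 0.193, 0.192 and 0.103 RPKM in AML and 0.556, 0.477 and 0.222 RPKM in MPN, the opposite order to Dnmt3b. Dnmt3bos, on the strand opposite to Dnmt3b, was at 0.362, 0.0888 and 0.0656 RPKM in AML and 0.0541, 0.0491 and 0.0259 RPKM in MPN, so all AML libraries were above all MPN libraries.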
